A study of Saccharomyces cerevisiae with 8 samples.

Results

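Proteins of the mitochondrial import machinery bring almost all mitochondrial proteins in from the cytosol. The messenger RNAs of 34 of its genes were measured here in Saccharomyces cerevisiae grown with little or ample iron. The 34 genes were chosen by name as subunits of the outer and inner membrane translocases, their chaperones, the import motor and the matrix proteins that cleave or fold what arrives. Each was matched by gene symbol to its probe set, and all 34 were among the 5449 yeast genes with a probe set. The laboratory strain DBY7286 was grown in 4 independent cultures with 10 µM ferrous iron (low iron) and in another 4 with 300 µM (high iron), with 1 Affymetrix yeast array per culture. All 8 cultures shared a defined minimal medium of pH 6.1, which held 1 µM copper and the ferrous iron chelator Ferrozine at 1 mM. They were harvested at an A600 of 0.5 after some 18 h at 30 °C. The comparison asks whether transcripts for import were kept while those of the respiratory chain fell.

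Most mitochondrial proteins are made in the cytosol and pass the outer membrane through the TOM complex, a channel with receptors that recognise targeting signals. From there the SAM complex places barrel proteins in the outer membrane, the MIA pathway traps cysteine-rich proteins in the intermembrane space by oxidising them, and the small TIM chaperones guide hydrophobic carriers to the TIM22 translocase. Proteins with a cleavable presequence go through the TIM23 translocase, and the PAM motor, driven by a matrix Hsp70, pulls them into the matrix. Many substrates of the machinery carry iron as haem or iron-sulphur clusters.

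Signals were deposited on a common scale, with a mean of 500.2 on each array after trimming 2% at each end. The 4 arrays per condition limit the precision of each value. Cultures with the same label were separate, so the spread between them includes culture differences. Genes of iron supply served as a check of the labels. FIT1, a cell wall protein that retains siderophore iron, read 5118 to 6230 in low iron and 78.9 to 196 in high iron, and CCC1, which stores iron in the vacuole, read 283 to 331 in low iron and 938 to 1097 in high iron. The ferroxidase gene FET3 was 2.51-fold higher in low iron (limma adjusted p = 4.38e-07). The conditions were apart on the first principal component of all tested genes (75.8% of the variance). On the next one (12.1%) low-iron replicates 1 and 2 scored 13.5 and 4.06 while low-iron replicates 3 and 4 scored -10.4 and -9.64. For named genes, a call that changed without either pair of replicates is therefore given with and without that pair.

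Most import transcripts differed little between the conditions. Of the 34 genes 3 rose and 8 fell in low iron, where a call is an adjusted p under 0.05 in limma, a linear model fitted over all 5412 genes tested. The share called was 32.4%, against 39.4% of all tested genes, close to the background, so the count by itself says nothing particular about import genes. By direction, 16.8% of all tested genes were called higher and 22.7% lower. The median log2 change of the 34 genes, low minus high iron, was -0.06, a 1.05-fold decrease, and that of all tested genes was -0.02. In size the changes had a median of 0.09 on the log2 scale for import genes and 0.18 for all tested genes. Several calls ended when 1 array was left out. The number lower was 5 without low-iron replicate 2, high-iron replicate 1 or high-iron replicate 4, and the number higher was 1 without low-iron replicate 2 or 4 or high-iron replicate 1 or 4 and 0 without high-iron replicate 2. Those fits called 31.7% to 38.0% of all tested genes. Without low-iron replicates 1 and 2 together 4 fell and 1 rose, and 38.8% of all tested genes were called. Without low-iron replicates 3 and 4 together 12 fell and 2 rose, and 49.3% of all tested genes were called. The sample descriptions open with a number of unstated meaning. With that number as a linear term only SAM37 and TOM70 of the 34 were called, and the share of all tested genes called was 21.2%.

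Taken gene by gene, the intervals bound how large each change could be. The limit of 1.5-fold was chosen with earlier results of these data known. For 32 of the 34 genes the 95% interval of the change lay within 1.5-fold in either direction, which was so for 76.2% of all tested genes. The exceptions were SAM37 and TIM8. None of the 34 fell 2-fold. The import genes were well measured, with signals from 279 to 4473, at least 42.2 times the background of the same array, taken from its probe sets for fission yeast genes. The replicate spread was a median of 5.91% of the mean in low iron and 4.41% in high iron.

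Most nuclear genes of the respiratory chain fell on the same arrays. Of 27 genes for NADH dehydrogenases, succinate dehydrogenase, the cytochrome bc1 complex, cytochrome c and cytochrome c oxidase, 26 fell and none rose, with a median log2 change of -1.30, a 2.46-fold decrease. Among all tested genes 22.7% fell. The difference between the lists was not tested. CYC1, the main cytochrome c, read 90.7, 40.1, 57.9 and 59.8 in low iron and 839, 820, 1004 and 905 in high iron, a log2 change of -3.88 (SE 0.197). SDH1, the flavoprotein of succinate dehydrogenase, fell 7.46-fold and CYT1, cytochrome c1, 7.09-fold (adjusted p = 1.35e-07 and 1.1e-05). The exception was NDE2, an external NADH dehydrogenase, at -0.19 (adjusted p = 0.311). Of the 27 respiratory genes 23 had a larger decrease than SAM37, which had the largest among the 34 import genes. In each low-iron culture the median deviation from the high-iron mean was -0.11 to -0.02 for the import genes and -1.46 to -1.0 for the respiratory genes on the log2 scale.

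**Figure D1:**
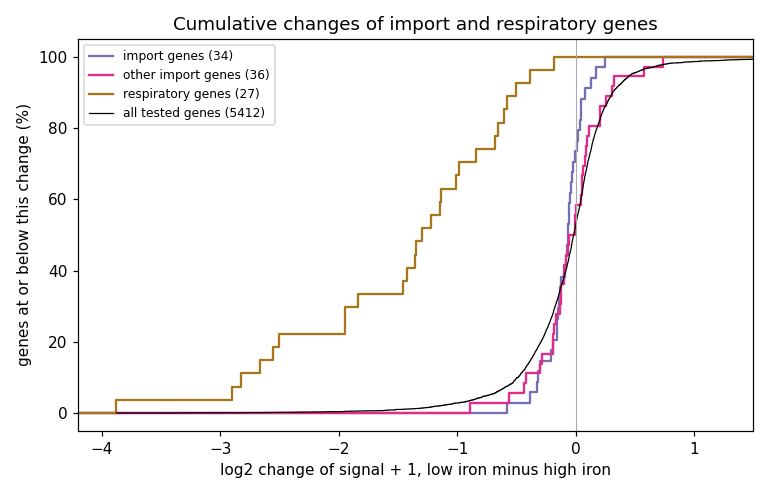
Cumulative share of genes (vertical axis, percent) at or below each log2 change of signal + 1, low iron minus high iron (horizontal axis), for the 34 import genes, 36 other import genes, 27 respiratory genes and all 5412 tested genes. The import curve rises steeply close to 0 between -0.58 and 0.24, while the respiratory curve extends to -3.88.

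At the outer membrane, the intervals of the receptors and the channel all lay within 1.5-fold. Of the 5 genes TOM20, TOM22, TOM70, TOM71 and TOM40, only TOM70 was called. TOM70 encodes the receptor that docks chaperone-bound carrier precursors. It read 2317, 2462, 2364 and 2567 in low iron, against 2698, 2690, 2637 and 2833 in high iron. All 4 low-iron values lay below all high-iron values, and the log2 change came to -0.16 (SE 0.0473; limma adjusted p = 0.0208). The call ended without high-iron replicate 4 (adjusted p = 0.0681), without low-iron replicates 1 and 2 (0.0783) and under median centring (0.111).

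TOM20, the receptor for presequences, read 1805, 1690, 1870 and 1865 in low iron and 1806, 1687, 1631 and 1721 in high iron, and the conditions overlapped. Its log2 change was 0.08, with a 95% interval of -0.04 to 0.20. The pore-forming barrel TOM40 had a change of -0.05, with an interval of -0.15 to 0.05. TOM22, the central receptor that also organises the complex, had a change of -0.09, with an interval of -0.24 to 0.06. TOM71, the paralogue of TOM70, averaged 648 ± 33.7 in low iron and 627 ± 18.6 in high iron (SD, n = 4), and its interval of -0.08 to 0.18 excludes a 1.5-fold change.

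The 3 small TOM subunits, single-span proteins that sit around the channel and steady it, had changes of -0.02 to -0.14, and 1 was called. TOM6, which favours assembly of the complex, read 3341, 3139, 3246 and 3565 in low iron and 3588, 3663, 3658 and 3614 in high iron. The groups did not overlap, yet the log2 change was only -0.13 (SE 0.0450; limma adjusted p = 0.0433). That call ended in 7 of the 8 fits that left out 1 array, all but the fit without low-iron replicate 4, with adjusted p from 0.0654 to 0.115, and also without low-iron replicates 1 and 2 (0.193), under median centring (0.223) and without the intensity trend (0.0833). TOM5, which passes precursors to the channel, did not overlap either, at 1254, 1244, 1390 and 1427 in low iron and 1509, 1464, 1453 and 1441 in high iron. It missed the threshold (log2 change -0.14, adjusted p = 0.0732) and passed it without low-iron replicate 4 (0.0363), without low-iron replicates 3 and 4 (0.00682) and under quantile normalization (0.0496). TOM7, which counteracts TOM6 in assembly, had a change of -0.02.

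The SAM complex held the largest change among the 34 genes. SAM37 (YMR060C), a peripheral subunit that helps release finished barrels and is dispensable on glucose, read 382, 337, 319 and 335 in low iron and 529, 494, 538 and 494 in high iron. Every low-iron culture was below every high-iron culture, a 1.5-fold decrease of -0.58 on the log2 scale (SE 0.0711; limma adjusted p = 1.42e-04). Among the 34 it was the only gene whose call held in all 20 alternative analyses. By size of change SAM37 ranked 589 among the 5412 genes tested.

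Of the other SAM subunits, SAM35 rose and SAM50 was not called. SAM35, the receptor for the sorting signal of barrel proteins, read 1342, 1411, 1301 and 1304 in low iron and 1191, 1146, 1218 and 1212 in high iron. It was higher in every low-iron culture, by 0.17 on the log2 scale (SE 0.0503; limma adjusted p = 0.0231). This call ended without low-iron replicate 2 (0.0601), high-iron replicate 1 (0.0509), high-iron replicate 2 (0.0655) or low-iron replicates 1 and 2 (0.0877). SAM50, the barrel at the core of the complex, averaged 517 ± 23.2 in low iron and 539 ± 11.2 in high iron (SD, n = 4), with an interval of -0.19 to 0.06. Whether SAM37 differed in its change from SAM35 or SAM50 was not tested.

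**Figure D2:**
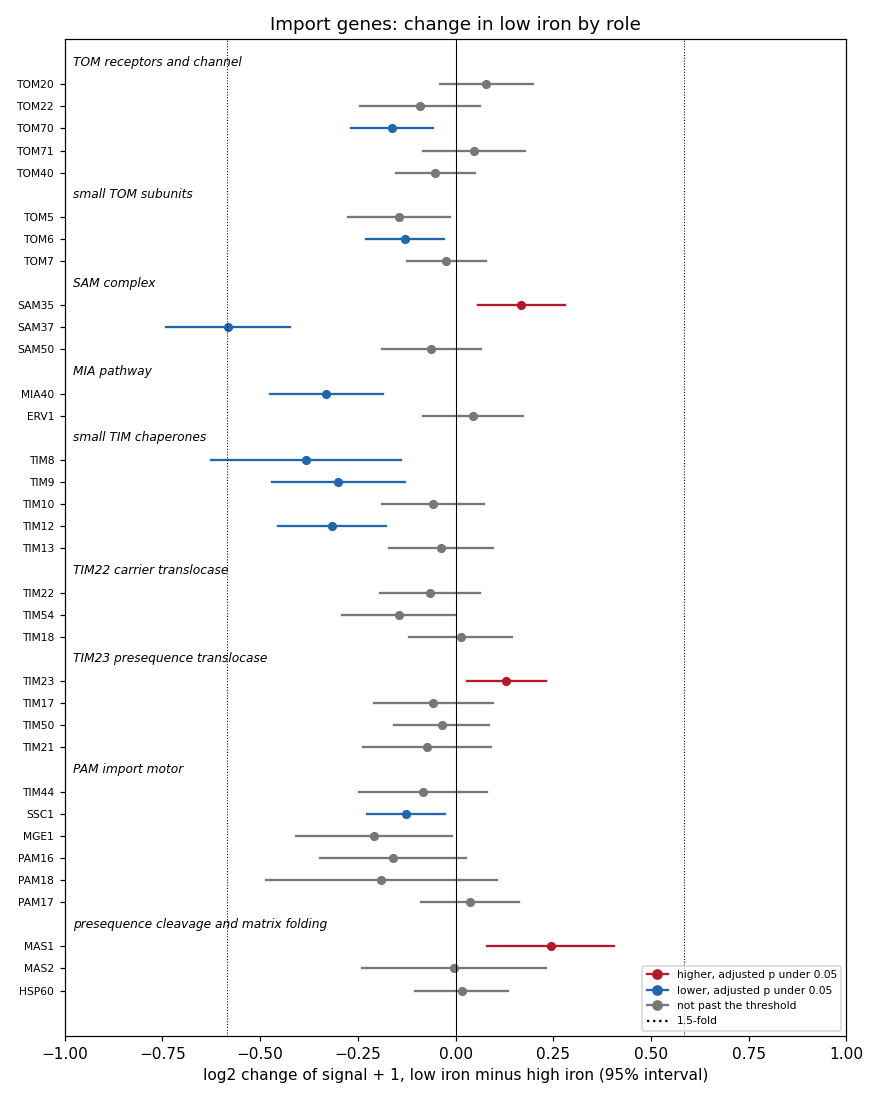
Log2 change of signal + 1, low iron minus high iron (horizontal axis), with its 95% interval for each of the 34 import genes, grouped by role from the outer membrane to the matrix. Dotted lines mark 1.5-fold, and only the intervals of SAM37 and TIM8 cross one.

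In the intermembrane space, MIA40 and 3 of the 5 small TIM genes fell, as did 22.7% of all tested genes. These calls ended with the description number as a linear term, a fit that called 21.2% of all tested genes. The limma adjusted p there was 0.0520 for MIA40 and TIM12, 0.173 for TIM9 and 0.194 for TIM8. MIA40 encodes the oxidoreductase that traps incoming cysteine-rich proteins, among them the small TIM chaperones themselves. Its signals were 849, 792, 781 and 729 in low iron and 921, 1046, 1017 and 977 in high iron. The groups did not overlap, and the decrease was -0.33 on the log2 scale (SE 0.0653; limma adjusted p = 0.00268).

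ERV1 encodes the flavin oxidase that reoxidises Mia40 and can hand the electrons on to cytochrome c. It read 785, 774, 751 and 788 in low iron and 727, 713, 807 and 761 in high iron, with a log2 change of 0.04 and an interval of -0.08 to 0.17. CYC1, which encodes that electron acceptor, was 14.7-fold lower on the same arrays. MIA40 minus ERV1 was lower in every low-iron culture than in any high-iron culture, a difference between their log2 changes of -0.38 (SE 0.0708; two-sided exact permutation test, p = 0.0286, adjusted p = 0.0508 over 16 pairs).

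Small TIM proteins form hexameric rings of alternating partners in the intermembrane space, Tim9 with Tim10 and Tim8 with Tim13, and Tim12 joins at the inner membrane. TIM12 read 503, 497, 546 and 500 in low iron and 685, 618, 634 and 612 in high iron. TIM9 read 1063, 992, 1279 and 1072 in low iron and 1402, 1377, 1313 and 1312 in high iron. In both genes the low-iron values were all below the high-iron values, with log2 changes of -0.32 for TIM12 (SE 0.0620; limma adjusted p = 0.00262) and -0.30 for TIM9 (SE 0.0764; 0.0107).

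TIM8, the yeast relative of the human gene altered in deafness-dystonia syndrome, had the widest spread relative to its mean among the genes that fell. Its signals were 565, 582, 817 and 688 in low iron and 899, 803, 875 and 848 in high iron. Low-iron replicate 3 lay above high-iron replicate 2, so the groups overlapped. The log2 change was -0.38 (SE 0.109; limma adjusted p = 0.0184), and -0.19 without low-iron replicates 1 and 2 (adjusted p = 0.0859). TIM8 also lost its call without low-iron replicate 2 (0.0549) or high-iron replicate 1 (0.0514). Without low-iron replicates 1 and 2, TIM9 came to -0.21 (0.0534) and TIM12 to -0.28 (0.00989).

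The partner genes TIM10 and TIM13 were not called. TIM10 read 2810, 2675, 3059 and 3233 in low iron and 3107, 3081, 2994 and 3046 in high iron, and the conditions overlapped. Its log2 change of -0.06 became -0.16 without low-iron replicates 3 and 4, which passed the threshold (limma adjusted p = 0.0207), and 0.04 without low-iron replicates 1 and 2 (0.558). TIM13 read 2265, 1951, 2094 and 2231 in low iron and 2326, 2152, 2214 and 2072 in high iron, a change of -0.04. The change of TIM9 was 0.24 more negative than that of TIM10 (difference -0.24, SE 0.0702), and the change of TIM12 was likewise more negative than that of TIM10 (difference -0.26, SE 0.0673). In both pairs the cultures of the conditions did not overlap (two-sided exact permutation tests, p = 0.0286 and adjusted p = 0.0508 each). Under quantile normalization the difference between TIM12 and TIM10 was -0.16. For TIM8 and TIM13 the difference was -0.34 (SE 0.135) and the cultures overlapped (exact permutation p = 0.0857, adjusted p = 0.114).

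**Figure D3:**
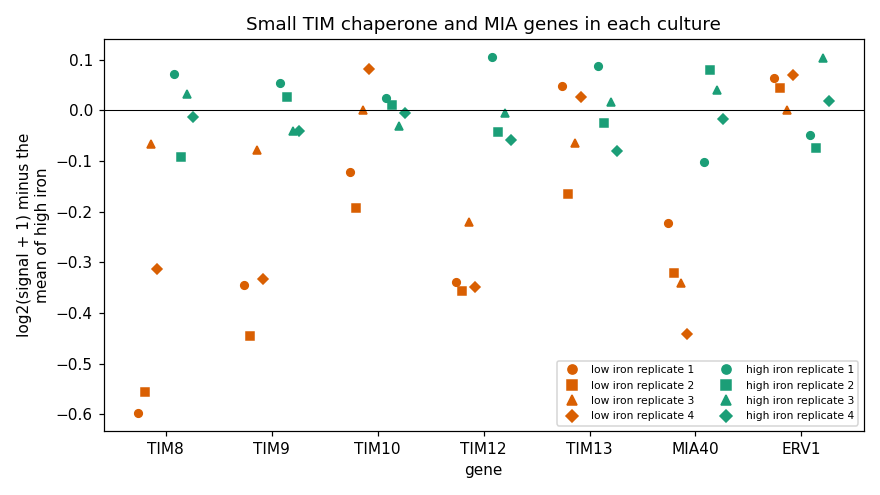
Log2(signal + 1) of the 5 small TIM genes, MIA40 and ERV1 in each culture, minus the mean of high iron for that gene (vertical axis), with low iron left of high iron and replicates shown by symbol. For TIM8, TIM9 and TIM12 low-iron replicate 3 lies nearest to high iron. All 4 low-iron cultures of TIM9, TIM12 and MIA40 lie below every high-iron culture.

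The TIM22 translocase inserts carrier proteins into the inner membrane, and none of its 3 listed genes was called. TIM22, the channel, averaged 456 ± 14.6 in low iron and 478 ± 17.2 in high iron (SD, n = 4; log2 change -0.07). TIM54, whose product exposes a large domain to the intermembrane space, read 555, 513, 553 and 537 in low iron and 661, 573, 575 and 582 in high iron. The groups did not overlap, but the change of -0.15 missed the threshold (limma adjusted p = 0.101). TIM18 read 919, 928, 954 and 1003 in low iron and 990, 873, 975 and 935 in high iron, a change of 0.01 with an interval of -0.12 to 0.15.

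This translocase shares protein with the respiratory chain. Tim18 is a paralogue of Sdh4, a membrane anchor of succinate dehydrogenase, and Sdh3, the other anchor, also serves as a subunit of the TIM22 complex. SDH4 read 375, 260, 442 and 419 in low iron and 1354, 1374, 1519 and 1416 in high iron, a 3.85-fold decrease. SDH3 read 518, 354, 513 and 487 in low iron and 1731, 1773, 1890 and 1766 in high iron, a 3.86-fold decrease. SDH4 and SDH3, the latter also a gene of the TIM22 complex, were thus lower in every low-iron culture. TIM18, the paralogue of SDH4, and TIM54, whose product shares the TIM22 complex with Sdh3, were not called. The change of TIM18 exceeded that of SDH4 by 1.96 on the log2 scale (SE 0.166), and that of TIM54 exceeded SDH3 by 1.80 (SE 0.126; two-sided exact permutation tests, p = 0.0286 and adjusted p = 0.0508 each).

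Of the 4 genes of the presequence translocase, TIM23 alone was called, and it rose. TIM23, the channel subunit with a presequence-binding domain, read 1754, 1790, 1877 and 1888 in low iron and 1702, 1660, 1677 and 1639 in high iron. All low-iron values were above all high-iron values, by 0.13 on the log2 scale (SE 0.0457; limma adjusted p = 0.0451). The call ended in 7 of the 8 fits that left out 1 array, all but the fit without low-iron replicate 1, with adjusted p from 0.0604 to 0.110, and also without low-iron replicates 3 and 4 (0.190) and without the intensity trend (0.0599).

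TIM17, the partner of Tim23 in the channel, averaged 2227 ± 173 in low iron and 2316 ± 160 in high iron (SD, n = 4). TIM50, the receptor that meets presequences leaving the TOM channel, averaged 787 ± 24.8 in low iron and 807 ± 31.2 in high iron. TIM21, which links the translocase to TOM and to respiratory supercomplexes, averaged 1212 ± 77.3 in low iron and 1278 ± 109 in high iron. The conditions overlapped for all 3, and their log2 changes were -0.06, -0.04 and -0.07. TIM22 and TIM23, which are relatives, differed in their changes by -0.20 (SE 0.0341; two-sided exact permutation test, p = 0.0286, adjusted p = 0.0508), and TIM17 and TIM23 by -0.19 (SE 0.0662; exact permutation p = 0.0571, adjusted p = 0.0831).

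The import motor had 1 called gene of 6. SSC1, the matrix Hsp70 that drives import and then helps fold proteins, read 3014, 2933, 2731 and 2774 in low iron and 3045, 3189, 3083 and 3176 in high iron. The groups did not overlap, and the log2 change was -0.13 (SE 0.0450; limma adjusted p = 0.0467). The call ended in 7 of the 8 fits that left out 1 array, all but the fit without low-iron replicate 1, with adjusted p from 0.0607 to 0.113, without low-iron replicates 3 and 4 (0.225), without the intensity trend (0.0834) and under median centring (0.183).

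Of the motor genes, PAM18 and MGE1 varied most between low-iron replicates. PAM18, the J-protein that stimulates the Hsp70, read 729, 763, 989 and 1038 in low iron and 1191, 855, 964 and 986 in high iron. Low-iron replicates 1 and 2 were below every other culture, and replicates 3 and 4 lay within the high-iron range. Its log2 change was -0.19 (limma adjusted p = 0.283), with -0.41 without low-iron replicates 3 and 4 (0.0156) and 0.03 without low-iron replicates 1 and 2 (0.851).

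MGE1, the nucleotide exchange factor of the Hsp70, read 1380, 1201, 1592 and 1339 in low iron and 1794, 1554, 1526 and 1485 in high iron, a change of -0.21 (limma adjusted p = 0.0886). It passed the threshold without low-iron replicate 3 (-0.28, adjusted p = 0.0189) and without low-iron replicates 3 and 4 (0.0209). PAM16, the J-like partner that restrains Pam18, averaged 313 ± 29.4 in low iron and 349 ± 24.8 in high iron, and came to -0.27 without low-iron replicates 3 and 4 (0.0232) against -0.16 with all arrays (0.155). TIM44, which tethers the Hsp70 at the channel exit, had a change of -0.08 with an interval of -0.25 to 0.08. PAM17, an accessory subunit, had a change of 0.04 with an interval of -0.09 to 0.16.

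Relatives of SSC1 were compared with it. SSQ1 encodes a matrix Hsp70 dedicated to iron-sulphur cluster transfer, and it read 400, 386, 386 and 326 in low iron and 327, 329, 309 and 327 in high iron, and missed the threshold (log2 change 0.21, limma adjusted p = 0.0503). It passed in 6 of the 20 alternatives, with adjusted p from 0.00713 without low-iron replicate 4 to 0.0442 without the intensity trend. The change of SSQ1 was 0.28 without low-iron replicates 3 and 4 (adjusted p = 0.00774) and 0.13 without low-iron replicates 1 and 2 (0.215). The change of SSC1 was more negative than that of SSQ1 by a difference of -0.33 (SE 0.0590), and more negative than that of the paralogue ECM10 by a difference of -0.19 (SE 0.0537). Cultures of the conditions overlapped in neither pair (two-sided exact permutation tests, p = 0.0286 and adjusted p = 0.0508 each). Under quantile normalization the difference between SSC1 and ECM10 was -0.46.

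In the matrix, MAS1 rose while MAS2 and HSP60 were not called. MAS1 and MAS2 encode the subunits of the processing peptidase that removes presequences. MAS1 read 1199, 1068, 973 and 1129 in low iron and 949, 869, 977 and 888 in high iron, and low-iron replicate 3 lay within the high-iron range. Its log2 change was 0.24 (SE 0.0734; limma adjusted p = 0.0240). The call ended without low-iron replicate 4 (0.0547), high-iron replicate 2 (0.0703), high-iron replicate 4 (0.0674) or low-iron replicates 1 and 2 (0.0807).

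MAS2 read 1011, 1243, 1352 and 1180 in low iron and 1193, 1018, 1211 and 1378 in high iron, and its replicates were too spread to place the change more closely than -0.24 to 0.23. The difference between MAS1 and MAS2 was 0.25 (SE 0.175; two-sided exact permutation test, p = 0.229, adjusted p = 0.261). The core subunits of the bc1 complex, COR1 and QCR2, are relatives of this peptidase and were chosen for mention after their values were seen. COR1 averaged 1003 ± 190 in low iron and 2538 ± 160 in high iron, and QCR2 360 ± 85.3 in low iron and 872 ± 58.5 in high iron (SD, n = 4), decreases of 2.56-fold and 2.46-fold.

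HSP60, the chaperonin that folds imported matrix proteins, read 4401, 4473, 3829 and 4166 in low iron and 3960, 4202, 4196 and 4307 in high iron, a change of 0.02 with an interval of -0.10 to 0.13. Its signal was the highest of the 34 genes, below the 6597 to 7706 that the brightest probe set of each array reached. Whether differences are compressed at high signal was not tested. HSP10, its co-chaperonin, had a change of -0.07 (limma adjusted p = 0.231), and the difference between the changes was 0.08 (SE 0.0570; exact permutation p = 0.171, adjusted p = 0.211).

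**Figure D4:**
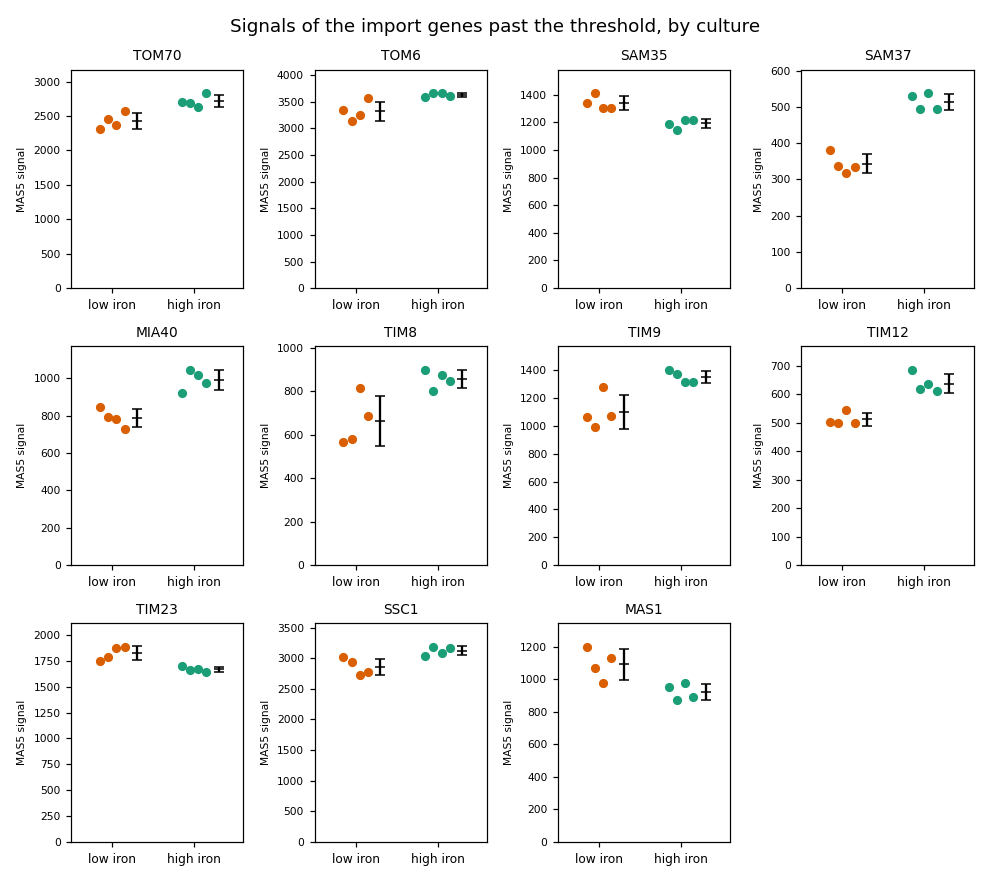
MAS5 signal (vertical axes, from 0) of the 11 import genes past the threshold, with 1 point per culture, low iron left of high iron, and the mean ± SD (n = 4) beside each group. The groups overlap for TIM8 and MAS1 and are apart for the other 9 genes.

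Over the 34 genes the 4 low-iron values all lay below the 4 high-iron values for 9 and above for 2, together 11 genes. Among all tested genes 38.5% were apart in this way, 21.8% of all lower and 16.8% of all higher in low iron. TOM5 and TIM54 were apart without passing the threshold, and TIM8 and MAS1 passed it without being apart. For 24 of the 34 genes (70.6%) the replicates varied more in low iron than in high iron, as did those of 74.9% of all tested genes.

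The pairs of related genes were all tested the same way. In 9 of 16 pairs the cultures of the conditions did not overlap, and each of these had p = 0.0286, the smallest that 4 cultures against 4 allow (two-sided exact permutation test). After adjustment over 16 pairs these came to 0.0508, so no pair passed the threshold. TOM20 and TOM70, receptors for different signals, differed by 0.24 (SE 0.0563; exact permutation p = 0.0286, adjusted p = 0.0508), and TOM70 and its paralogue TOM71 by -0.21 (SE 0.0742; exact permutation p = 0.0571, adjusted p = 0.0831). For PAM16 and PAM18, at 0.03 (SE 0.1; exact permutation adjusted p = 0.8), and for SSC1 and MGE1, at 0.08 (SE 0.129; adjusted p = 0.488), the cultures overlapped.

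**Figure D5:**
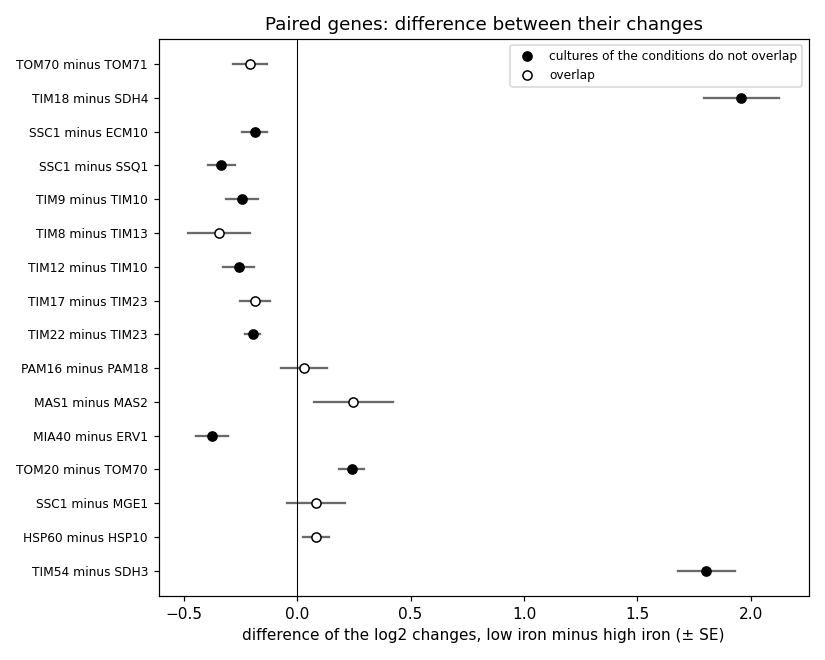
Difference between the log2 changes of 2 related genes, low iron minus high iron (horizontal axis), with its SE, for 16 pairs. Filled points mark the 9 pairs whose cultures do not overlap between conditions, and the differences of TIM18 and SDH4 (1.96) and of TIM54 and SDH3 (1.80) stand far from the others.

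Among further genes of import, chosen with earlier results of these data known, HOT13 and OM14 changed more than any of the 34. Of 36 further genes for insertion, targeting, matrix chaperones and processing or quality control proteases, 4 rose and 8 fell, 33.3% against 39.4% of all tested genes, with a median log2 change of -0.03. The largest rise was that of HOT13, a zinc-binding intermembrane space protein that helps keep Mia40 active. HOT13 read 2032, 2005, 1924 and 1947 in low iron and 1175, 1146, 1264 and 1157 in high iron, a 1.67-fold increase (SE 0.0502 on the log2 scale; limma adjusted p = 2.34e-06). Every low-iron culture was above every high-iron culture.

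OM14, an outer membrane protein that docks ribosomes, read 1334, 950, 1041 and 1137 in low iron and 1963, 2157, 2101 and 1992 in high iron, a 1.85-fold decrease and the largest in this list (limma adjusted p = 5.15e-05). MBA1, a ribosome receptor at the inner membrane, averaged 448 ± 21.8 in low iron and 661 ± 12.9 in high iron (SD, n = 4), a log2 change of -0.56 (adjusted p = 4.4e-05). YLH47, a relative of another ribosome-binding inner membrane protein, fell by 0.44 (0.00624), and ATP23, a protease and chaperone of the ATP synthase, fell by 0.42 (0.00249). Among the inner membrane peptidase genes, IMP2 rose by 0.26 (0.0127) and SOM1 fell by 0.28 (0.0131). YTA12, a subunit of the matrix-facing AAA protease, fell by 0.16 (0.0277), a call that ended without low-iron replicate 2 or 4 or high-iron replicate 2, 3 or 4, with adjusted p from 0.0519 to 0.0803, and under quantile normalization (0.0635), median centring (0.0864) or without low-iron replicates 3 and 4 (0.0572).

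HSP78, a matrix disaggregase chosen for mention after its values were seen, split the low-iron cultures. It read 1297, 1244, 751 and 746 in low iron and 599, 695, 712 and 613 in high iron, so low-iron replicates 1 and 2 were high and replicates 3 and 4 were just above high iron. Its log2 change was 0.58 (limma adjusted p = 0.0288), and 0.20 without low-iron replicates 1 and 2 (0.0826). The call also ended without low-iron replicate 1 or 2 or high-iron replicate 1, 2 or 4, with adjusted p from 0.0517 to 0.0831.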

How the data were processed

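Per the labels' protocols, RNA of 8 yeast cultures was isolated with Trizol and its biotin-labelled copy hybridised to Affymetrix arrays. The authors deposited linear signal intensities. The submitters' processing notes name MAS5, with settings not given in the sources used here. Scaling each array to a common mean hides a change in total mRNA per cell.

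The platform table and RefSeq names (assembly R64) tied 5498 of 10928 probe sets to a single S. cerevisiae gene. The brightest probe set represented each of 5449 genes. The 34 import genes had 1 probe set each. Genes entered the test with a mean signal above 5.48, the 95th percentile of 1746 probe sets with other gene identifiers, which carry fission yeast style symbols. This left 5412 genes.

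Low iron was compared with high iron on log2(signal + 1) with limma 3.58.1 (R 4.3.3), using lmFit and a trended eBayes, two-sided, with Benjamini-Hochberg adjustment over all tested genes. The log2 scale with its pseudocount of 1 barely affects genes this bright. Differences between the changes of 2 genes were tested by exact permutation over samples, adjusted over 16 pairs. The procedure was tested on simulated data. The genes, lists, pairs and the 1.5-fold limit were chosen with earlier results of these data known. All 34 import genes are named. Of the other lists, the text names the 8 further import genes with the lowest adjusted p, the 3 largest respiratory decreases and respiratory genes that did not pass, together with genes of the pairs, and FIT1, FET3 and CCC1 as a check of the labels. Alternatives were 2 pseudocounts (16 and 64), quantile normalization, median centring, no filter, a stricter filter (99th percentile), no trend, array weights, the mean of probe sets, the number that opens each description as a linear term, and arrays left out. Searches for motifs in promoters and proteins were planned, and sequences were not used here. Plots used Python 3.11.15 and matplotlib 3.10.9.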

Additional observations from a re-analysis of the deposited data

Results flagged for a closer look

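Among 54 genes, each with its 4 cultures per condition, 6 of 108 groups held a culture far from the other 3, and chance alone gives about 1 in 20. TIM12 read 546 in low-iron replicate 3, against 497 to 503 in the other low-iron cultures. TIM17 read 2486 in low-iron replicate 4, against 2121 to 2151 in the other low-iron cultures. TIM54 read 661 in high-iron replicate 1, against 573 to 582 in the other high-iron cultures. SSQ1 read 309 in high-iron replicate 3, against 327 to 329 in the other high-iron cultures. The iron supply genes used to check the labels held the remaining values, FET3 with 4288 in low-iron replicate 3, against 5094 to 5200, and FIT1 with 196 in high-iron replicate 1, against 78.9 to 92.7.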

How the results depend on the processing

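Over 680 re-analyses, 20 for each of the 34 import genes, 619 kept their side of the threshold, 53 lost a call and 8 gained one. The sign turned in 28, which fell on 11 genes, all of them not called with all arrays, such as HSP60 (-0.06 to 0.09) and MAS2 (-0.10 to 0.08). No gene called with all arrays changed sign. Scaling moved the median change of all tested genes by under 0.1 on the log2 scale, to 0.0012 under quantile normalization and 0.02 under median centring, where 5 import genes and 5 further import genes fell. Quantile normalization called 7 further import genes higher, with 42.0% of all tested genes called, and brought 10 pairs past the threshold, against 0. These pairs crossed together. Without it 9 pairs had the smallest possible p of 0.0286, adjusted to 0.0508 (exact permutation test). With it TOM70 and TOM71 joined them, and all 10 adjusted to 0.0457. The difference between TIM12 and TIM10 meanwhile shrank from -0.26 to -0.16. With the description number as a linear term 0 import genes rose and 2 fell, 2 further import genes rose and 4 fell, and 491 genes rose and 658 fell in all, against 907 and 1226; what that number records is not given in the sources used here. Leaving out 1 array gave 0 to 3 import genes higher and 5 to 8 lower, and 2 to 6 further import genes higher and 5 to 10 lower. Of all tested genes 31.7% to 42.6% were called in these fits. Without low-iron replicates 1 and 2, 1 import gene rose, 4 fell and 2 further import genes rose, with 38.8% of all tested genes called. Respiratory genes lower numbered 25 or 26 in every alternative run. The cause of these shifts was not tested. No paired analysis was possible because replicate numbers follow the order of the arrays and pair no cultures. With arrays left out, the differences of the pairs were recalculated but not tested.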
